A study of Mus musculus with 4 samples.

Results

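Sarcomeric myosin heavy chains are the motor proteins of the thick filament of muscle, and this account follows the genes of 6 of them, Myh1, Myh2, Myh3, Myh4, Myh7 and Myh8, in cultured mouse muscle cells. The genes were taken by name, and all 6 were among the 32285 genes counted. They were followed in 5481 cells out of 5985 cell barcodes seen in any of the deposited files. The cells were muscle stem cells of MyoD-KI mice, which carry a knock-in allele that reports the muscle transcription factor MyoD through the red fluorescent protein tdTomato. They had grown for 5 days in serum-rich growth medium, and the fraction with high tdTomato was sorted and profiled with a droplet kit that counts the ends of messenger RNAs by unique molecular identifiers (UMIs). All files carry that 1 group, with no untreated or low-reporter group analysed here, and the labels give no age, sex, number of animals or pooling. The labels name 4 replicates, but their files hold the same cells: each pair shared 5946 to 5965 barcodes, at least 99.9% of the smaller file. Molecules could not be matched between files. The counts of the same barcode differed less between files than separate Poisson draws would, from which 13.4% to 14.5% of the molecules were estimated to be shared. The 4 files therefore counted as 1 sample. Each value below is the mean over the files, ranges over files show how well the measurement repeats, and 95% intervals cover counting error only. No test between groups of cells was run, since cells of 1 sample are not replicates.

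In muscle, heavy chain isoforms follow one another. Myh3 encodes the embryonic chain and Myh8 the perinatal (neonatal) chain; both are silenced in most adult fibres and return in regenerating fibres. Myh2, Myh1 and Myh4 encode the adult fast chains IIa, IIx and IIb, and Myh7 encodes the slow chain, shared with the heart ventricle. Myog encodes myogenin, the transcription factor switched on when myoblasts commit to differentiate, and Acta1 encodes the skeletal actin of the thin filament, so their levels order the cells here.

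Of the 6 genes, 5 lie in one row on the plus strand of chromosome 11, within 230.335 kb (67078300 to 67308634, GRCm38, GENCODE M21), in the order Myh3, Myh2, Myh1, Myh4, Myh8. Myh7 lies on the minus strand of chromosome 14 (54970684 to 54994626). The sequences just before the starts of the genes are shown because they are where the detected and the nearly silent members of the row can be compared letter by letter. They come from RefSeq (GRCm38.p6), where all 6 genes were matched, and are the 250 bases before each RefSeq start, 5′ to 3′ on the strand of the gene. Capitals mark runs of at least 10 bases found identically in the window of another of the 6 genes. For Myh1 the last 50 bases are annotated by GENCODE as part of the gene and are not printed. The windows are chr11:67078050-67078299 for Myh3, chr11:67276874-67277123 for Myh8, chr11:67199852-67200051 for Myh1, chr11:67170777-67171026 for Myh2 and chr11:67237562-67237811 for Myh4, all on the plus strand, and chr14:54994627-54994876 on the minus strand for Myh7.
Myh3: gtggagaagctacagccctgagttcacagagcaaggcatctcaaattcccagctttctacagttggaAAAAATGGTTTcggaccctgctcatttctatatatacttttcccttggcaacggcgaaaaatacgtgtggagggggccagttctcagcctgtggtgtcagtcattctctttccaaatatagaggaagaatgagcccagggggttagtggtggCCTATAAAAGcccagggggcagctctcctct
Myh8: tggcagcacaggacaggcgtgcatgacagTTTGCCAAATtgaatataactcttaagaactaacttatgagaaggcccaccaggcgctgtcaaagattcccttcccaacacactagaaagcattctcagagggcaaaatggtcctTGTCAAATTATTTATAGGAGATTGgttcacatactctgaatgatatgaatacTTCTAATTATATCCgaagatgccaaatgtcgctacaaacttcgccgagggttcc
Myh1: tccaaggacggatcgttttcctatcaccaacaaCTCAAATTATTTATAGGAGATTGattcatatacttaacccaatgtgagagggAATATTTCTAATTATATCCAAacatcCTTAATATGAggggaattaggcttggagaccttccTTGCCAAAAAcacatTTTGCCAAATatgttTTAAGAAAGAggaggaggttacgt
Myh2: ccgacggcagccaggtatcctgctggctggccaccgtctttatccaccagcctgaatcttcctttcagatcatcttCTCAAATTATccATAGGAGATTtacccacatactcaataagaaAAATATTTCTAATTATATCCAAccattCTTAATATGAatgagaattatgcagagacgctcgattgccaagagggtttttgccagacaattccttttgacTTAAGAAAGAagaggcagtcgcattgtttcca
Myh4: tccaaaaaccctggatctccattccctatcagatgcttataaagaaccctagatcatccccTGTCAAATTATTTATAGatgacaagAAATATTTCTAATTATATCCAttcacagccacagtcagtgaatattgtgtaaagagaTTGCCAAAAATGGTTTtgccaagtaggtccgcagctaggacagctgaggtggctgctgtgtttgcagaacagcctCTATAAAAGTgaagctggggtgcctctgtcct
Myh7: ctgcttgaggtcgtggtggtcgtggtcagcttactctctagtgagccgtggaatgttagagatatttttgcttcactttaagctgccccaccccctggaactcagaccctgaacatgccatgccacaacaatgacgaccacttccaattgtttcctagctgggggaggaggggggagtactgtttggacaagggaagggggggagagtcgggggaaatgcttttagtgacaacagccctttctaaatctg

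The windows of Myh1 and Myh4 were 61.2% identical in alignment, those of Myh1 and Myh2 60.0%, and those of Myh2 and Myh4 56.8%, against 50.8% to 54.0% for the other pairs within the row, all of them with Myh3 or Myh8, and 49.6% to 51.2% for the pairs with Myh7. The longest run shared by Myh1 and Myh8 was TCAAATTATTTATAGGAGATTG, and the longest shared by Myh1 and Myh2 was AATATTTCTAATTATATCCAA. The latter is the run that Myh4 carries without its last letter. Myh1 and Myh2, whose levels in these cells differ widely, thus share long stretches before their starts. The letters TATAAA, on either strand, were found in 4 of the 6 windows (Myh3, Myh8, Myh1 and Myh4) and in 13.0% of 27025 RefSeq windows of the same length. They began 29 bases before the RefSeq start of Myh3, 32 before that of Myh1 and 31 before that of Myh4. This match of Myh1 lies in the 50 bases that are not printed, which GENCODE counts as part of the gene. The E-box CANNTG, the kind of site bound by MyoD and myogenin, was in 4 of 6 windows (all but Myh1 and Myh2) and in 66.0% of all windows. Its form CAGCTG was in the Myh4 window alone, and in 12.8% of all windows. The MEF2 motif was in 3 of 6 (Myh8, Myh1 and Myh4) and in 1.73% of all windows, and each match overlaps one of TATAAA. The CArG motif was in the Myh4 window alone (1.40% of all windows), and TCAGGTT in none of the 6 (3.49%). These are matches of letters in a window and say nothing of binding.

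Myh3 was the most abundant of the 6 messages. Its summed level was 651 CPM (645 to 657), where CPM are UMIs of the gene per 1000000 summed UMIs, with 649, 655, 649 and 654 CPM in replicates 1 to 4. Myh1 followed at 435 CPM (430 to 440), with 438, 433, 435 and 436 CPM in the files. Each gene's files thus lay far closer together than the 2 genes did. Myh8 stood at 62.4 CPM (63.0, 62.1, 62.0 and 62.7 in the files) and Myh7 at 20.1 CPM (20.4, 19.5, 20.7 and 20.0). Myh4 reached 0.752 CPM (0.556 to 0.991) and Myh2 0.435 CPM (0.291 to 0.627), or 49.5 and 28.75 UMIs per file over all cells. The intervals of Myh4 and Myh2 overlapped, and these 2 could not be ordered; the intervals of the other neighbours in the order did not overlap. The order was the same per kilobase of transcript. In bulk terms, embryonic Myh3 held 55.6% of the UMIs of the 6 genes (55.3 to 56.0), the adult fast genes 37.3% (37.0 to 37.6), perinatal Myh8 5.33% (5.18 to 5.50) and slow Myh7 1.72% (1.63 to 1.82). Nearly all of the adult fast share was Myh1.

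How firmly a UMI can be given to one isoform differs between the genes, since the chains are close in sequence. In the last 500 bases of the annotated transcripts, none of the 90-base windows of Myh3 came within 2 mismatches of another Myh gene. The share was 2.68% for Myh8, 15.8% for Myh1, 11.2% for Myh4 and 9.98% for Myh2. For Myh7 it was 54.5%, with cardiac Myh6 as the nearest gene, so the Myh7 values are uncertain against Myh6, which was counted at 0.443 CPM over all kept cells. The window of 90 bases is an assumed read length. The antisense transcript Myhas overlaps Myh1 and was counted at 1.88 CPM, and whether the counting used strand is not given in the sources used here.

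Among the other myosin heavy chain genes, the non-muscle chains Myh9 and Myh10 were at 222 and 29.9 CPM. Myh7b, a slow-type chain kept in extraocular muscle and heart, was at 2.44 CPM, Myh14 at 1.29 CPM, the extraocular chain Myh13 at 0.892 CPM, and smooth muscle Myh11 at 0.302 CPM. Myh15 had 0.5 UMIs per file. Myh13 lies beside Myh8 at the end of the same row on chromosome 11, and its level was of the order of those of Myh2 and Myh4.

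The cells matched their label of myogenic cells: all 6 myocyte markers and all 4 stem or progenitor markers were at 1 CPM or more, and Pax7 was at 57.1 CPM. Markers of 4 other cell types stayed near 0 across the Acta1 bins used below. Their summed levels were 0 to 1.12 CPM for fibroblasts, 0.537 to 1.34 for endothelium, 0.405 to 1.16 for immune cells and 0.422 to 1.66 for Schwann cells. The 3 smooth muscle or pericyte markers summed to 10.0 CPM in the cells with least Acta1 and 0.202 CPM in those with most. The 3 cardiac markers summed to 2.54 to 3.63 CPM in the bins. Tnni3 made up most of this in the lower bins and Myh6 in the highest: Myh6 was at 0.064 CPM in the cells with least Acta1 and 3.07 CPM in those with most, and Tnni3 at 2.46 and 0.202 CPM. No marker was at 0 over all kept cells.

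With more Acta1, the isoforms came up together. Cells were binned by their own Acta1 level: under 100 CPM (2374 cells), 100 to under 1000 (1319), 1000 to under 5000 (960), 5000 to under 15000 (737) and 15000 and over (91). Myh3 went through 20.2, 124, 904, 2645 and 3766 CPM over these bins. Myh1 went through 11.3, 60.3, 595, 1796 and 2714 CPM, Myh8 through 1.59, 7.69, 69.9, 277 and 403 CPM, and Myh7 through 0.915, 3.03, 21, 89.2 and 132 CPM. In each of these 4 genes every bin was above the one before it, with intervals that did not overlap. The 4 files of a bin gave close values, for instance 2626, 2660, 2637 and 2657 CPM of Myh3 at Acta1 5000 to under 15000. Myh2 stayed at or below 1.92 CPM and Myh4 at or below 2.92 CPM in every bin, so the cells richest in Acta1 had little message of the IIa and IIb chains. Median depth was 10887, 10295, 11325, 12054 and 12321 UMIs per cell over the bins, and the share of dividing cells (Mki67 plus Top2a at 100 CPM or more) was 61.9%, 50.3%, 19.2%, 3.53% and 0%. Their part in these levels was not tested.

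**Figure D1:**
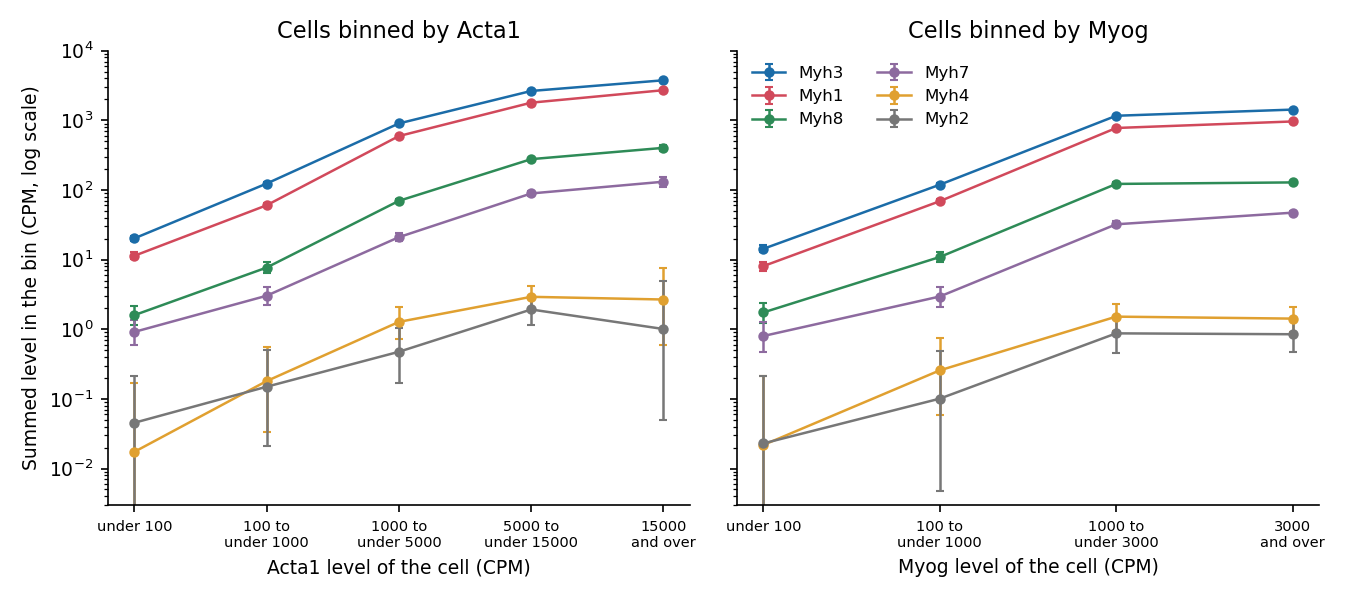
Summed level of each gene (CPM, log scale) in cells binned by Acta1 (left, 5 bins) or by Myog (right, 4 bins). Points are means over the 4 files and bars 95% counting intervals, which for Myh2 and Myh4 can reach 0 and leave the axis. Myh3, Myh1, Myh8 and Myh7 keep their order in every bin, from 20.2 to 3766 CPM for Myh3 over the Acta1 bins, and Myh2 and Myh4 stay below 3 CPM.

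Ordered by Myog instead, the levels differed most between the lower bins and less between the upper 2. Myh3 was at 14.3 CPM under 100 CPM of Myog (1875 cells), 119 CPM at 100 to under 1000 (1048), 1165 CPM at 1000 to under 3000 (996) and 1428 CPM at 3000 and over (1562). Myh1 was at 8.07, 69.0, 778 and 965 CPM in the same bins, and Myh7 at 0.80, 2.95, 32.2 and 47.2 CPM. Myh8 was at 122 CPM in the third bin and 129 CPM in the last, with overlapping intervals, whereas the intervals of Myh3, Myh1 and Myh7 did not overlap between these bins.

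Crossing the 2 orders gave differences with Myog that depended on the Acta1 bin. At Acta1 5000 to under 15000, the 158 cells with Myog 1000 to under 3000 had more of every detected isoform than the 569 cells with Myog 3000 and over. Myh3 was at 3546 CPM in the former (3552, 3565, 3515 and 3551 in the files) and 2337 CPM in the latter (2308, 2352, 2337 and 2352). Myh8 was at 471 against 208 CPM, Myh1 at 2310 against 1614 CPM and Myh7 at 108 against 82.6 CPM. None of the file ranges of these 4 genes overlapped. Mean Acta1 was close on both sides, 8668 and 8233 CPM, while median depth was 14276 and 11421 UMIs and 9.49% and 1.58% of the cells were dividing. At Acta1 100 to under 1000 the order was the other way for these 4 genes. Myh3 was at 203 CPM in the 327 cells with Myog 1000 to under 3000 and 268 CPM in the 250 with Myog 3000 and over. Myh1 was at 86.3 against 171 CPM there, Myh8 at 7.82 against 20.8 CPM and Myh7 at 2.82 against 10.3 CPM. At Acta1 1000 to under 5000 Myh3 was at 965 against 907 CPM, and Myh8 per 100 Myh3 was 5.63 against 9.26. The part of depth and division in these differences was not tested. Within Myog 3000 and over, Myh3 still went up with Acta1, from 111 CPM in the 52 cells under 100 CPM of Acta1, where Myh1 was at 119 CPM, through 268 (250 cells), 907 (641) and 2337, to 2924 CPM in the 50 cells at 15000 and over.

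Along Acta1 the mix of isoforms changed less than their levels. The Myh3 share of the UMIs of the 6 genes was 59.2% (56.0 to 62.3) in the lowest Acta1 bin, 63.4% (61.7 to 65.2) in the second, 56.8% (56.1 to 57.5) in the third, 55.0% (54.5 to 55.4) in the fourth and 53.7% (52.6 to 54.7) in the highest. With 5 bins of equal size the lowest and highest bins gave 55.3% and 54.8%, so the difference between the ends depends on the bin limits. The lowest bin also holds levels close to those of the cells low for both Myog and Acta1 described below. The adult fast share was 33.5%, 31.1%, 37.5%, 37.4% and 38.7%, and the Myh8 share 4.67%, 3.94%, 4.39%, 5.76% and 5.75%. From the second bin to the highest, the summed level of the 6 genes went from 195 to 7018 CPM, and Myh3 held the largest share in each of the 5 Acta1 bins. In terms of Myh1 per 100 Myh3 UMIs the bins gave 56.2, 48.8, 65.9, 67.9 and 72.1. Over Myog bins the Myh3 share was 57.3%, 58.9%, 55.5% and 55.5%. The mix varied more when both orders were crossed. The Myh3 share was then between 46.3% (52 cells with Myog 3000 and over and Acta1 under 100) and 71.1% (363 cells with both at 100 to under 1000), with 107 and 30.9 Myh1 per 100 Myh3 UMIs. In those 52 cells the adult fast share was 49.8% (40.03 to 59.97) and the Myh3 share 46.3% (36.3 to 56.2), with overlapping intervals. These intervals count UMIs, many of which come from the same cells. With every cell weighted equally among the 1844 cells with at least 10 UMIs of the 6 genes over the files, the Myh3 share was 67.4% ± 35.8 (SD over 42 cells), 65.1% ± 32.3 (270), 61.0% ± 30.7 (725), 57.5% ± 23.7 (716) and 53.2% ± 20.6 (91) over the Acta1 bins. The spread between cells was thus wider than the change between bins.

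**Figure D2:**
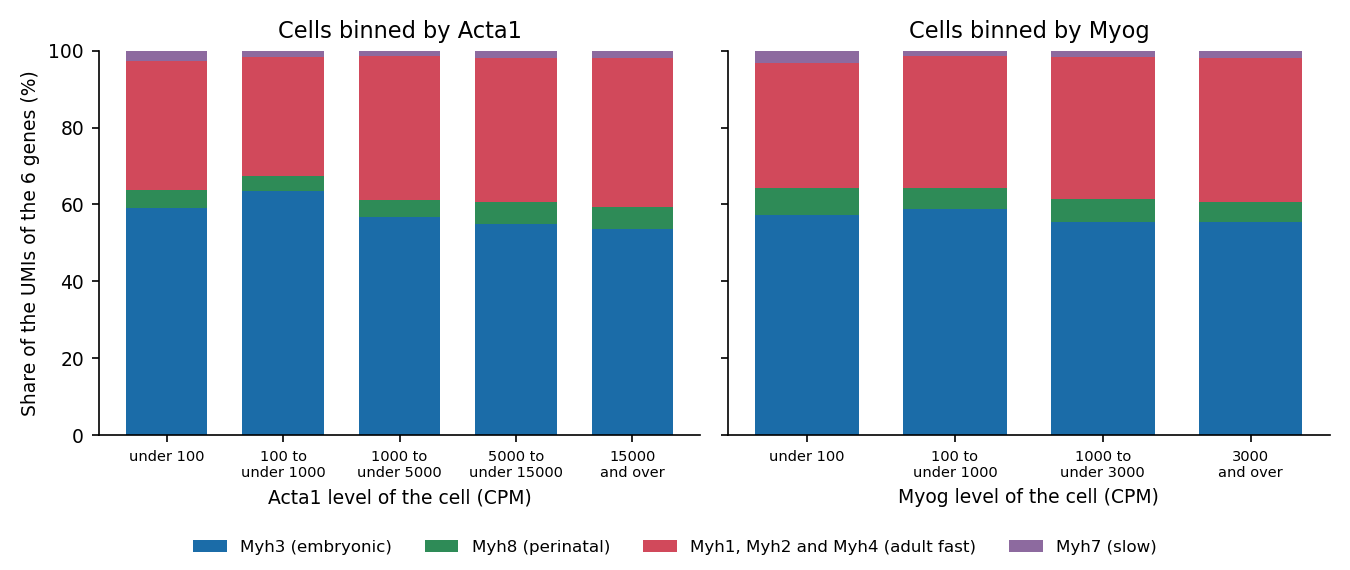
Share of the UMIs of the 6 genes held by embryonic Myh3, perinatal Myh8, the adult fast genes Myh1, Myh2 and Myh4 together, and slow Myh7, in cells binned by Acta1 (left) or Myog (right); each bar is 1 bin, as the mean over the 4 files. The Myh3 share lies between 53.7% and 63.4% in the Acta1 bins while the levels differ by orders of magnitude.

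Dividing cells held less Myh3 and Myh1. The 2343 dividing cells had 153 CPM of Myh3 and 81.1 CPM of Myh1, and the 3138 others 1117 and 766 CPM. Within Acta1 1000 to under 5000, Myh3 was at 750 CPM in 184 dividing cells (751, 736, 756 and 756 in the files) and 955 CPM in 776 others (950, 958, 952 and 961). Myh1 was at 430 against 651 CPM there, so that Myh1 per 100 Myh3 was 57.4 in dividing cells and 68.1 in the others. Myh8 (64.6 CPM, 55.8 to 74.1, against 71.7, 66.4 to 77.5) and Myh7 (19.3 against 21.6 CPM) had overlapping intervals. At equal depth Myh3 was detected in 69.2% of the dividing and 69.3% of the other cells of that bin, and Myh1 in 47.0% (39.5 to 54.7) and 52.7% (49.0 to 56.3), with overlapping intervals for both. Mean Acta1 differed on the 2 sides too, 2403 against 2882 CPM, and its part was not tested.

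A low level of the isoform messages was present in cells low for both Myog and Acta1. In the 1492 cells under 100 CPM of both Myog and Acta1, Myh3 was at 13.3 CPM and Myh1 at 7.66 CPM, Myh8 at 1.67 CPM and Myh7 at 0.654 CPM. Only 2 of these cells had 10 or more Myh3 UMIs over the 4 files, and none had 10 of Myh1, whose highest count was 6. There were 57.7 Myh1 per 100 Myh3 UMIs in these cells against 66.8 over all kept cells. Myh8 per 100 Myh3 was 12.5 against 9.59, and Myh7 per 100 Myh3 4.92 against 3.09. The highest count of Myh3 in a cell of this group was 25 over the files. The source of these UMIs was not tested, and shares of cells at or below those of this group are not read as expression here.

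To compare shares of cells at equal depth, each cell was thinned to 5000 UMIs per file, which 5197 cells could provide. Myh3 was then detected in 36.2% of cells (34.9 to 37.5), Myh1 in 27.6%, Myh8 in 11.2%, Myh7 in 4.97%, Myh4 in 0.269% and Myh2 in 0.183%. The background in cells low for Myog and Acta1 (median 11273 UMIs before thinning, 11049 in all kept cells) was 6.60% for Myh3, 3.27% for Myh1, 0.859% for Myh8 and 0.376% for Myh7. For Myh2 and Myh4 it was 0 of 1397 cells, which allows up to 0.264% by the exact interval. The intervals of their shares over all cells, 0.147% to 0.452% for Myh4 and 0.086% to 0.341% for Myh2, took in that limit. At Acta1 5000 to under 15000, Myh4 was detected in 1.21% of cells (0.548 to 2.31), above that limit, and Myh2 in 0.727% (0.245 to 1.66), an interval that took it in. Along the Acta1 bins Myh3 was detected in 8.52%, 24.2%, 69.3%, 91.5% and 97.2% of cells. Myh1 was detected in 4.53%, 14.3%, 51.6%, 81.6% and 96.3%, and Myh8 in 0.780%, 2.86%, 17.1%, 43.8% and 59.0%. In the highest bin nearly every cell thus gave Myh3 and nearly every cell gave Myh1, while Myh8 was missed in many. A cell with a Myh3 UMI in one file had one in another file in 79.5% of cases; the value was 78.8% for Myh1, 65.0% for Myh8 and 55.4% for Myh7, and 24.9% for Myh2 and 13.0% for Myh4.

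Cells seldom held one isoform alone once Acta1 was high. Over all thinned cells, 56.3% gave no isoform, 20.2% gave 1, 13.0% gave 2, 8.18% gave 3 and 2.41% gave 4 or more. Myh3 and Myh1 were found together in 0.610%, 6.36%, 39.99%, 76.8% and 93.5% of cells over the Acta1 bins. Myh3 as the only isoform was found in 7.84%, 16.9%, 25.5%, 10.7% and 2.53%, highest in the middle bin. Myh1 without Myh3 was found in 11.6% of cells at Acta1 1000 to under 5000 and in 4.81% at 5000 to under 15000.

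The other detected isoforms were found more often in cells with a Myh3 UMI than in cells without one. This was also so for Myh1, Myh8 and Myh7 within the bins from 1000 to under 15000 CPM of Acta1, inside which Acta1 still varies. Over the thinned cells, Myh1 was found in 58.6% of cells with a Myh3 UMI and 9.98% of those without, a difference of 48.6 points (46.1 to 51.1). Myh8 was found in 26.9% against 2.24% and Myh7 in 12.1% against 0.897%. Within Acta1 1000 to under 5000 the Myh1 shares were 57.7% and 37.8%, a difference of 19.9 points (12.8 to 26.7), and the Myh8 shares 21.1% and 7.97%. At 5000 to under 15000 they were 84.0% and 56.5% for Myh1, 45.6% and 24.5% for Myh8, and 22.1% and 8.16% for Myh7. In the lowest bin the Myh1 difference was 2.86 points (-0.52 to 7.60) and the interval held 0. At 100 to under 1000, 24.2% of all cells gave Myh3, 6.36% gave Myh3 with Myh1, and 7.93% gave Myh1 without Myh3. Myh1 was thus more frequent among cells with Myh3 in that bin too. In the highest bin only 2.5 cells per file lacked a Myh3 UMI. There Myh1 was found in 96.2% of cells with Myh3 and 100% of those without, and the intervals of the difference held 0 for Myh1, Myh8 and Myh7. For Myh2 and Myh4 the intervals of the difference held 0 within every Acta1 bin. In the 737 cells at 5000 to under 15000, Pearson's r on ln(1 + UMIs per 10000) was 0.49 for Myh3 and Myh1, 0.44 for Myh3 and Myh8, 0.41 for Myh1 and Myh8, and 0.35 for Myh3 and Myh7. That of Acta1 with the fast light chain Mylpf was 0.54. These r describe cells that share libraries and a depth range.

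Single cells differed widely in which isoform they favoured, and did so in the same way in every file. Myh3 had the most UMIs in 1275 of 1844 cells (69.1%), Myh1 in 529 (28.7%), Myh8 in 21 and Myh7 in 4, with 15 ties; Myh2 and Myh4 led in 0. The Myh3 part of that count was 71.4%, 71.1%, 68.0%, 69.6% and 68.1% over the Acta1 bins. Among cells with at least 20 UMIs of Myh1 plus Myh3 in a file (871 to 910 per file), the Myh1 share had an SD of 25.1 points over cells. Binomial sampling of UMIs around the mean share of these cells gives 7.29 points, so that the observed spread was 3.44 times as wide. The same share correlated between files with Pearson's r of 0.94 to 0.95 over 825 to 856 cells in the 6 pairs of files. These r show how well a cell's share repeats, and rest in part on the molecules that the files are estimated to share.

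Within Acta1 1000 to under 5000 the SD was 29.8 points against 8.09 from sampling, and at 5000 to under 15000 it was 22.5 against 6.87. The Myh8 share of Myh8 plus Myh3 had an SD of 9.67 points against 4.31, with a mean r of 0.857 between files, and the Myh7 share of Myh7 plus Myh3 an SD of 5.70 against 2.68, with a mean r of 0.841. Each of the 3 observed SDs was thus above that of binomial sampling around the mean share. This describes cells of 1 sample with at least 20 UMIs of the pair of genes, by a measure added after the data were seen.

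In the 1202 cells with at least 40 UMIs of Myh1 plus Myh3 over the 4 files, the Myh1 share had a median of 35.7%, and its middle 50% ran from 16.1% to 55.2%. There were 210 cells below 10%, of which 53 held no Myh1 UMI at all, and 55 cells above 90%, of which 9 held no Myh3 UMI. The share of cells below 10% was 40.3%, 24.4%, 11.7% and 3.33% over the Acta1 bins from 100 to under 1000 upward, and the share above 90% was 6.94%, 7.66%, 2.15% and 3.33%. Cells with nearly pure Myh3 thus made up a smaller share of the cells with enough UMIs where Acta1 was higher. By number they were 29, 105, 71 and 3. The minimum of UMIs takes in few cells of the lower bins, 72 at 100 to under 1000 against 605 at 5000 to under 15000.

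**Figure D3:**
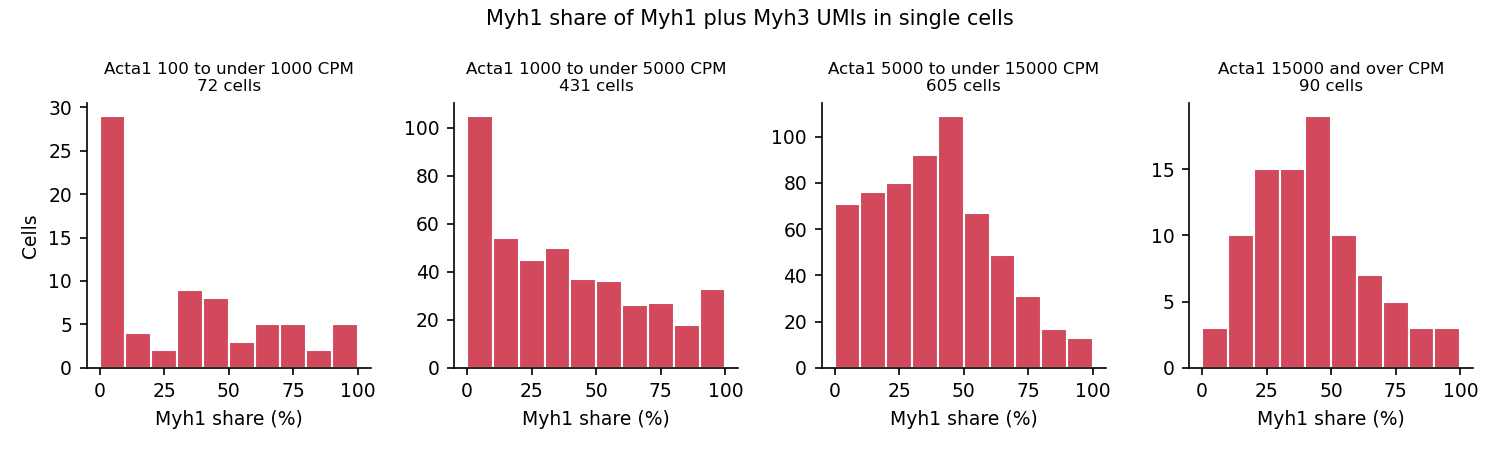
Number of cells (y axis) by their Myh1 share of Myh1 plus Myh3 UMIs (x axis, %) in 4 Acta1 bins, for cells with at least 40 such UMIs over the 4 files. The bin from 0 to 10% is the tallest below 5000 CPM of Acta1, and the bin from 40 to 50% is the tallest at 5000 CPM and over.

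Both ends of that distribution were found again in other files of the same cells, which are estimated to share part of their molecules. Of 1154 cells with at least 20 UMIs of the pair of genes in each set of 2 files, 203 had a Myh1 share below 10% in replicates 1 and 2. Their median in replicates 3 and 4 was 2.94% (0 to 20.8), and 0 of them passed 50%. The 54 cells above 90% in replicates 1 and 2 had a median of 96.2% in the other 2 files (66.7 to 100), and 0 of them fell below 50%.

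**Figure D4:**
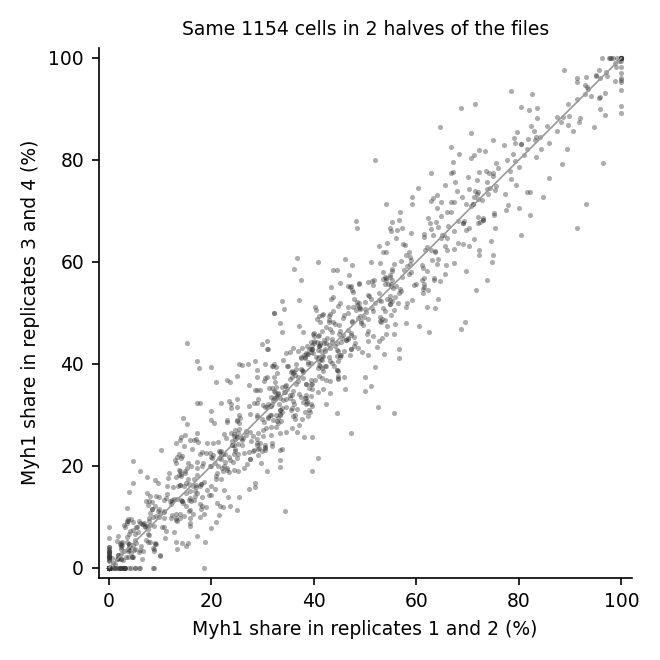
Myh1 share of Myh1 plus Myh3 UMIs in the same 1154 cells, from replicates 1 and 2 (x axis, %) and from replicates 3 and 4 (y axis, %); each point is 1 cell and the line marks equality. Points follow the line over the whole range from 0 to 100%.

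The groups by Myh1 share differed less in Myog than in Acta1. Myog was at 3639 CPM (3572 to 3709) in the 210 cells below 10% and 3802 CPM (3769 to 3835) in the 937 cells between. It was at 4054 CPM (3905 to 4210) in the 55 cells above 90%, and these intervals did not overlap. Acta1 was at 4106, 7239 and 4713 CPM in the same order. By choice Myh3 was at 2040, 2515 and 90.8 CPM in these groups and Myh1 at 78.7, 1881 and 2622 CPM. Myh8, which took no part in the choice, was at 77.4 CPM (67.8 to 88.0) and 97.0 CPM (75.1 to 124) at the ends and 258 CPM (249 to 267) between. Myh7 was at 27.4, 83.4 and 34.8 CPM in the same order. Cells with both Myh3 and Myh1 thus also had the most Myh8 and Myh7, with more Acta1 as well. Myhas, which overlaps Myh1, was at 0.593 CPM (0.056 to 2.26), 6.99 CPM and 13.4 CPM (6.08 to 25.3). Median depth was 13118, 12862 and 11725 UMIs, and 19.5%, 9.28% and 7.27% of the cells were dividing. The nuclear RNA Malat1 was at 9672, 10888 and 15168 CPM. The part of depth, division and nuclear RNA in these differences was not tested.

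The isoforms were also compared between 619 late cells (Myog at 3000 CPM or more, Acta1 at 5000 or more) and 302 early committed cells (same Myog limit, Acta1 under 1000). A gene was called at a change of 2-fold on the log2(CPM + 1) scale with the same sign in every file. Of the 8543 genes with at least 50 UMIs per file over both sides, 478 were called higher in late cells, which is 5.6%, and 809 lower, which is 9.47%. The median of all genes tested was -0.31, and TMM or median-ratio scaling moved it to 0.07 or 0.05. With those scalings 744 or 728 genes were called higher and 357 or 373 lower, so the split of higher and lower calls turned over. Of the 6 isoform genes 4 passed the count minimum and all 4 were called higher. Since Acta1 set the sides and the isoforms go with Acta1, this is a description.

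Myh3 was at 2385 CPM late and 245 CPM early, a log2 ratio of 3.28 (3.21 to 3.34 over files). Myh1 was at 1642 and 163 CPM, a ratio of 3.33 (3.30 to 3.36). Myh8 was at 214 and 18.0 CPM, a ratio of 3.52 (3.25 to 3.94), and Myh7 at 87.0 and 9.80 CPM, a ratio of 3.03 (2.79 to 3.21). The file ranges of the embryonic, perinatal and adult isoforms overlapped, so no order between them was read from these ratios. Myh2 and Myh4 had under 50 UMIs per file and were not tested. Late cells were deeper (median 11399 against 8935 UMIs) and fewer of them were dividing (1.45% against 25.8%), and the part of depth and division in these ratios was not tested.

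Of the 8 other myosin heavy chain genes 3 passed the minimum. Myh7b was called higher (2.87) and non-muscle Myh10 lower (-1.06), the latter no longer under either other scaling (-0.69 and -0.71), and Myh9 had a ratio of -0.87. The counts of the lists that follow stand beside the same 5.6% called higher and 9.47% called lower of all genes tested. Of 15 thick and thin filament partners 12 passed and 10 were called higher, with a median ratio of 2.02. They included the embryonic light chain Myl4 (3.07), the fast light chains Myl1 (2.84) and Mylpf (2.27), the M-band protein Myom2 (2.94) and myosin binding protein Mybph (2.82). The partners not called were the slow-type binding protein Mybpc1 (-0.51) and Myom3 (0.72), the latter called higher under the other 2 scalings. Acta1 itself is among the 10, by choice.

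Of 9 genes of myosin folding and assembly all passed and 5 were called higher, with a median of 1.28. These were the muscle myosin chaperone Unc45b (1.92), Cavin4 (3.21), a protein of muscle membranes, and the sarcomeric ubiquitin ligase family members Trim63 (2.16), Trim54 (1.28) and Trim55 (1.28). The methyltransferase Smyd1 had a ratio of 0.66 and was called under the other 2 scalings. The general forms Unc45a (-0.25), Hsp90aa1 (-0.05) and Hsp90ab1 (-0.16) had ratios near the median of all genes, and their sign turned under TMM scaling (0.13, 0.34 and 0.23).

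Of 18 transcription factors and other regulators tied to isoform choice 14 passed, with 2 called higher and 2 lower and a median of -0.41. The 2 lower calls lie near the 9.47% of all genes, and nothing is read from either count. Mef2c, a MADS-box factor of muscle, was at 1477 CPM late and 161 CPM early (3.19), and Vgll2, a cofactor of TEAD factors, had a ratio of 1.25. Prox1 (-1.75) and Six4 (-1.19) were lower. Sox6, a repressor of slow genes, had a ratio of -0.79, and Nfix, which drives the embryonic to fetal change, one of -0.73, neither of them called. Under TMM scaling Tbx15 (1.14) and Ppargc1a (1.32) were called higher too, and Six4 (-0.81) was no longer called. Of 4 fetal muscle genes 3 passed, with creatine kinase Ckm (4.21) and the enolase Eno3 (1.2) called higher. The other that passed was Nfix (-0.73), which is also among the regulators above and was not called.

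**Figure D5:**
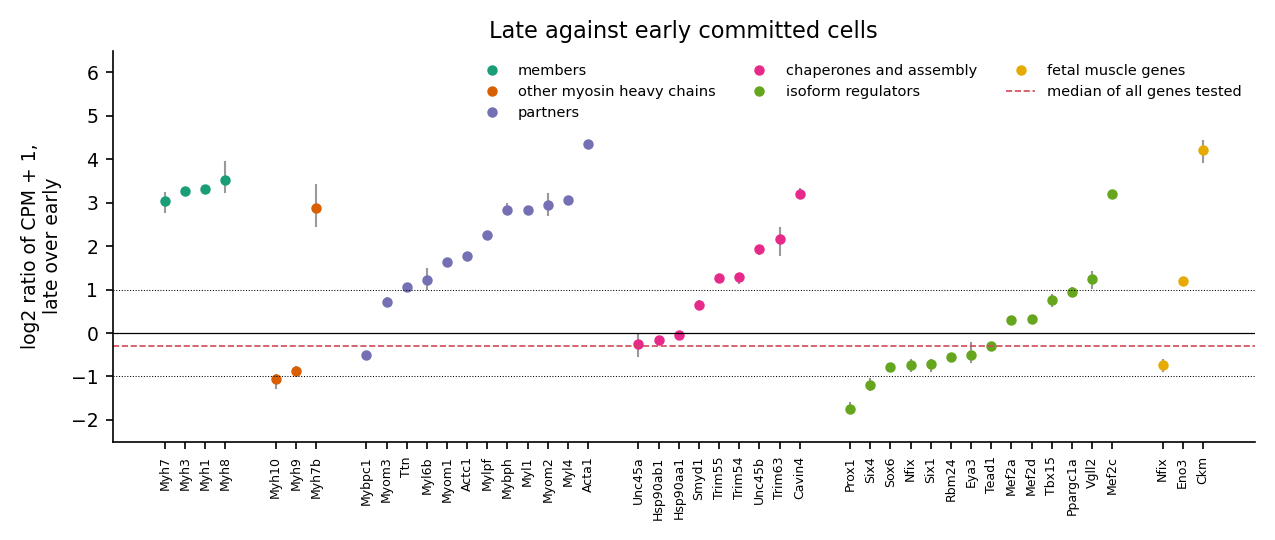
Log2 ratio of CPM + 1, late over early committed cells (y axis), for the genes of each list that passed the count minimum (x axis, 1 point per gene; colours mark the lists). Grey bars run from the lowest to the highest file, dotted lines mark a 2-fold change and the dashed line the median of all genes tested at -0.31. The 4 isoform genes lie between 3.03 and 3.52.

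The genes whose levels followed the isoforms most closely were looked up among 8812 genes with at least 500 UMIs per file, by Pearson's r on ln(1 + UMIs per 10000) over the 5481 kept cells. For Myh3 they were Mef2c (0.84), Myl4 (0.83), Myl1 (0.83), Mybph (0.82) and Smpx (0.82). For Myh1 they were Mef2c (0.81), Myl4 (0.79), Tnnc1 (0.78), Smpx (0.78) and Tnni1 (0.77). For Myh8 they were Casq2 (0.72), Myl4 (0.67), Mef2c (0.66), Myom2 (0.66) and Cav3 (0.66). In the 1788 cells with 1000 CPM of Acta1 or more, the first gene was Casq2 for Myh3 (0.70) and Myh8 (0.61), and Mef2c for Myh1 (0.65), with Casq2 next (0.65). Mef2c encodes the factor named above and Casq2 a calcium-binding protein of the sarcoplasmic reticulum. These r are across cells that share libraries and depth, and are given as a description.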

How the data were processed

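The deposited values are whole UMI counts of each gene in each barcode, for 4 labelled replicates. The file headers name Cell Ranger 7.1.0, whereas the submitters' processing notes list version 3.1.0 and the builds mm10 and GRCm39. The treatment of intronic reads, which can raise long genes, is not given in the sources used here. Gene positions were looked up by Ensembl identifier in GENCODE M21 (GRCm38), which may differ from the build behind the counts.

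Files held 5950 to 5974 barcodes and 62627341 to 68898900 UMIs. Kept cells were barcodes in all files (5944) with a mean of at least 1000 genes and under 10% mitochondrial UMIs, which left out 463. No doublet caller was run; removing the 5% of cells with the most UMIs was an alternative. Medians were 10369 to 11382 UMIs per kept cell and file, and reported values are means of the values of single files. CPM are UMIs of a gene per 1000000 summed UMIs; bins used each cell's mean CPM over the files, and grid bins under 50 cells were not used. Intervals are exact Poisson (levels) or Clopper-Pearson (shares), taken at the average count per file. Differences of shares carry an interval built from both shares' intervals. The late against early comparison used log2(CPM + 1); TMM factors came from edgeR 4.0.16, and no model was fitted. On simulated data for that comparison (8543 genes, 200 changed), 100% of changed genes that passed the count minimum were called at 3-fold and at 6-fold, and 0% at 1.5-fold. The simulated counts held Poisson noise only, so this outcome follows from the 2-fold limit. It says nothing of variation between cells or samples. Computations used Python 3.11.15, numpy 2.4.6 and scipy 1.17.1.

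The genes, lists, bins and comparisons were chosen with earlier results of these data known. Named genes are the 6 isoforms, the other myosin heavy chain genes, 4 lists (partners, assembly, regulators, fetal genes), the 5 genes most correlated with Myh3, Myh8 and Myh1, and transcripts overlapping the gene row. The spread of shares between cells, the groups by Myh1 share and the search of sequences were added after the data were seen.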

Additional observations from a re-analysis of the deposited data

Results flagged for a closer look

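Of 30 values compared over the 4 files, 1 had a file apart from the others: the Myh3 share in the lowest Acta1 bin was 58.4% in replicate 4 and 59.4% to 59.5% in the other files. Chance alone sets apart about 5% of such values, and the interval of this share from counting is wider than the gap.

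The 463 barcodes left out by the cell filter, which no comparison uses, held Myh3 at 1280 CPM (1204 to 1360), above the 651 CPM of the kept cells. Their median depth was 1217.5 UMIs, a median of 40.8% of their UMIs were mitochondrial, and 27.4% of them counted as dividing. They gave 78.8 Myh1 and 16.4 Myh8 per 100 Myh3 UMIs, against 66.8 and 9.59 in kept cells. Acta1 was lower in these barcodes, at 586 CPM against 2134 CPM in kept cells, and so was Myog, at 539 against 1803 CPM. Unlike in the Acta1 bins of kept cells, more Myh3 thus went with less Acta1 here, and the source of this was not tested.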

How the results depend on the processing

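No paired analysis was possible because there is only 1 group and the 4 files hold the same cells. Of 257 recomputed values that answer a comparison, 188 stayed within the limit set for their kind of value, 69 moved past it and 0 reversed. These limits were not all errors: counts of called genes and the spread of shares between cells carry no counting interval. Leaving out any 1 file moved none of the values past its limit. These recomputations are among the 188, and they are a weak check because the 4 files hold the same cells. The 188 are therefore not read as a measure of how well the values withstand other processing.

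Levels moved with the cell filter and the way of averaging. With a stricter filter (2000 genes or more, mitochondrial UMIs under 5%), Myh3 was at 578 CPM, Myh8 at 52.4, Myh1 at 380 and Myh7 at 17.1 CPM. Averaging CPM over cells gave 571, 55.1 and 381 CPM for Myh3, Myh8 and Myh1, and leaving mitochondrial UMIs out of the totals gave 676, 64.8 and 452 CPM. Without the 5% of cells with the most UMIs Myh3 was at 640 CPM. The order of the isoforms was the same in each. The Myh3 share was 56.2% and the Myh8 share 5.10% with the stricter filter. As a mean over cells Myh3 held 60.0%, Myh8 5.16% and the adult fast genes 33.2%. With bins of equal size the Myh3 share was 55.3% in the lowest and 54.8% in the highest Acta1 bin, so that the difference between these ends was lost; without the cells of most UMIs it was 51.8% in the highest.

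Shares of cells followed the depth. Thinned to 2500 UMIs, Myh3 was found in 29.3% of cells, Myh8 in 7.39%, Myh1 in 21.7%, Myh2 in 0.069% and Myh7 in 3.27%. Thinned to 8000 UMIs the shares were 43.7% for Myh3, 15.4% for Myh8, 33.9% for Myh1, 0.466% for Myh4 and 6.97% for Myh7. Without thinning they were 44.4%, 15.9%, 34.6%, 0.602% and 7.74% for the same genes and 0.420% for Myh2. With the stricter filter they were 33.9% for Myh3, 9.60% for Myh8, 25.04% for Myh1 and 4.19% for Myh7. The difference in co-detection with Myh3 for Myh8 was 19.8 points at 2500 UMIs, 29.3 at 8000, 29.2 without thinning, 22.2 with the stricter filter and 19.6 at 2 or more UMIs. For Myh1 it was 45.4 points without thinning, 45.6 with the stricter filter and 54.2 at 2 or more UMIs. For Myh7 it was 9.18 points at 2500 UMIs, 13.7 at 8000, 14.3 without thinning and 6.97 at 2 or more UMIs. For Myh4 it was 1.21 points without thinning and 0.147 at 2 or more UMIs, and for Myh2 0.055 at 2 or more UMIs.

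Counts of genes called higher and lower in late cells were 293 and 296 with a minimum of 200 UMIs, 288 and 319 with a pseudocount of 10 CPM, 744 and 357 with TMM factors, 728 and 373 with median-ratio factors, 790 and 2300 at 1.5-fold and 184 and 135 at 4-fold. The 4 isoforms tested kept log2 ratios above 2 in each. The spread of the Myh1 share, with alternatives chosen after seeing the data, was 27.2 points with a minimum of 10 UMIs, 21.4 with 50 and 25.8 with the stricter filter. It was 25.1 without the cells of most UMIs and 24.97 without dividing cells. Where values moved, the cause was not tested, except that thinning and UMI limits change by construction how often a gene is seen.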
